A study of Mus musculus with 4 samples.

Results

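The genes described here are 10 genes of bile acid synthesis, transport and feedback control by the nuclear receptor FXR: Cyp7a1, Cyp7b1, Cyp8b1, Cyp27a1, Baat, Slc27a5, Slc10a1, Abcb11, Nr1h4 and Nr0b2. They were chosen by name, with earlier results of these data known. All 10 were found among 20642 gene symbols, and where a symbol had several transcripts the one with the most promoter-proximal reads was kept. Nascent transcription was measured by PRO-seq, a nuclear run-on assay that maps engaged RNA polymerase, in livers of C57BL/6 mice at postnatal day 14. There were 2 libraries labelled WT (Alb-Cre+ Hdac3+/+, here WT1 and WT2) and 2 labelled Hdac3 knockout (Alb-Cre+ with Hdac3 fl/- or fl/fl, here KO1 and KO2), each from a run-on with nuclei pooled from several mice. All groups carried the Alb-Cre transgene, in which the albumin promoter drives Cre in hepatocytes. Mice with Hdac3 fl/- also carry 1 deleted allele in every cell, and where recombination occurred was not measured here.

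Hepatocytes make bile acids from cholesterol by a classic pathway that starts with Cyp7a1 and an alternative pathway that starts with mitochondrial Cyp27a1. The products are activated, joined mainly to taurine in mice, pumped into bile, and taken back up from the portal blood. Bile acids bind FXR, encoded by Nr1h4, which induces the corepressor SHP, encoded by Nr0b2, and the export pump Abcb11, and lowers Cyp7a1 and Cyp8b1.

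The letters upstream of 4 genes whose gene bodies were lower in the knockout are shown, because RefSeq (GRCm38.p6) places their promoter entry within 2 bp of the start that was counted. Each sequence is the 250 bases before the start on the gene's own strand, with the matches in capitals, and Cyp8b1, Slc10a1 and Abcb11 lie on the minus strand. Cyp8b1 is at chr9:121916306-121916555, Nr0b2 at chr4:133553126-133553375, Slc10a1 at chr12:80968080-80968329 and Abcb11 at chr2:69342617-69342866.
Cyp8b1: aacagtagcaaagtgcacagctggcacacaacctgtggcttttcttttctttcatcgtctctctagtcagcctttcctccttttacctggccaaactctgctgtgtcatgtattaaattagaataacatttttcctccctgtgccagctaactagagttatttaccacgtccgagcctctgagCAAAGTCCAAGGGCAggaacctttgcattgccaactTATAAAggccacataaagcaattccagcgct
Nr0b2: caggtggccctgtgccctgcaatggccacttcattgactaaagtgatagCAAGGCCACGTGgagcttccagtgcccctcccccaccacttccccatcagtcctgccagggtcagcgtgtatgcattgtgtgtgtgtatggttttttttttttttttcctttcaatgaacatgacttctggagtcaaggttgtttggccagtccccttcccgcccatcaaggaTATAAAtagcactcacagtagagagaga
Slc10a1: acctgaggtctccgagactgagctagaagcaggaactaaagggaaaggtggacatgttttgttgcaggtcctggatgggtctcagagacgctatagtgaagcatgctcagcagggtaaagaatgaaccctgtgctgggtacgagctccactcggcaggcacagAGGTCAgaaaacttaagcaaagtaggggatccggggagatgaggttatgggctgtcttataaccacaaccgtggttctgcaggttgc
Abcb11: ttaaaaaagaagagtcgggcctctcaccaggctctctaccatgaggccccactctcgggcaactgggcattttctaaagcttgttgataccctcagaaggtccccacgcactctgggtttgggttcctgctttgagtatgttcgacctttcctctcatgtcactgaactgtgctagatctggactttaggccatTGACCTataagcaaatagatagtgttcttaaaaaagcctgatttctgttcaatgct

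The motifs were searched on both strands. In Cyp8b1, an HNF4-type site, CAAAGTCCA, ran from base -67 to -59 before the start and overlapped an NR5A2-type site, CAAGGNCA, from -60 to -53, and a TATAAA stood at -31 to -26. In Nr0b2, an NR5A2-type site at -201 to -194 overlapped an E-box, CACGTG, at -195 to -190, and TATAAA stood at -28 to -23. A nuclear receptor half-site, AGGTCA, lay at -87 to -82 in Slc10a1 and, on the other strand, at -56 to -51 in Abcb11. Among 32851 RefSeq promoters of the same length, 0.384% held CAAAGTCCA, 5.53% CAAGGNCA, 6.02% CACGTG, 12.4% TATAAA and 14.0% AGGTCA. These matches describe letters and not bound sites. An inverted repeat of the half-site with 1 base between was also searched, in its exact letters only, and was in 2 promoters. Neither belonged to those of the 10 genes that had a promoter entry. Cyp7a1, Cyp7b1, Baat and Slc27a5 had no entry, and that of Nr1h4 lay 26927 bp from its counted start. Repeats with a mismatch were not searched, so the search cannot show that the 10 genes lack such a repeat. The half-site of Abcb11 ends a repeat of this form with 1 mismatch.

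The 4 libraries held 16628518 to 26190040 reads in genes, and the promoter-proximal window took 9.38% and 10.3% of these in WT but 13.6% and 17.0% in the knockout, with KO2 the shallowest and highest. Reads in the promoter-proximal window, the 50 bp with most reads around the start, and in the gene body, from 1 kb past the start to the end, were tested separately on the scale log2(normalized reads + 1) with limma over 12705 active genes. A gene was called at an adjusted p under 0.05 with a log2 change over 0.6 in size, and "rose" or "fell" below is kept for such genes. Hdac3 itself had 665 and 648 gene body reads in WT and 609 and 582 in the knockout (log2 change -0.14, SE 0.13, limma adjusted p = 0.413), so these reads do not show the deletion and the genotype rests on the labels. Nothing given with the samples says that replicates came from separate litters, and p-values rest on these libraries alone. limma also shares variance between genes of like level, so an SE is not the spread of that gene's own libraries. Near the start, the SE of Baat was 0.35 here and 0.54 in a fit of all symbols. For Nr0b2 it was 0.30 and 0.11. An exact permutation test of 2 against 2 libraries cannot go below p = 0.333.

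In gene bodies, 9 of the 10 genes were active and could be tested. Of these, 5 fell (Cyp8b1, Nr0b2, Slc10a1, Abcb11 and Slc27a5), 1 rose (Baat) and 3 were not called (Cyp7a1, Cyp27a1 and Nr1h4), against 11.4% of all active genes called down and 10.4% called up. The median log2 change of the 9 was -1.01 against -0.09 over all active genes. In 7 of the 9, both knockout libraries lay below both WT libraries and in 1 above, orders that 42.8% and 27.6% of active genes also showed. The tenth gene, Cyp7b1, had too few reads per kb to pass the activity filter.

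**Figure D1:**
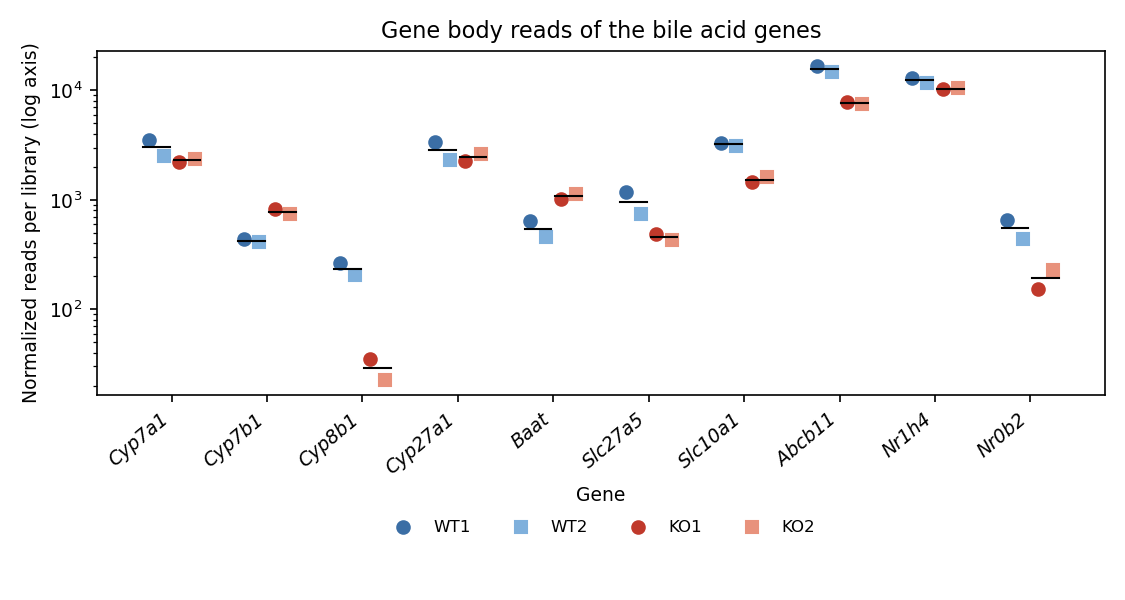
Normalized gene body reads of the 10 genes in each library, on a log axis. Circles and squares mark replicates 1 and 2, blue WT and red Hdac3 knockout, and black lines the group means. The knockout points sit far below the WT points for Cyp8b1 (22.8 and 35.0 reads against 207 and 264) and above them for Baat and Cyp7b1.

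Among the enzymes of the classic pathway, Cyp8b1 had the largest fall of the 9 genes tested. Cyp8b1, the sterol hydroxylase that directs synthesis toward cholic acid, is a single-exon gene on chr9:121914356-121916305, and its gene body held 264, 207, 35.0 and 22.8 normalized reads in WT1, WT2, KO1 and KO2. Both knockout libraries were far below both WT libraries. The log2 change was -3.0 (SE 0.25, n = 2 per group, limma adjusted p = 1.82e-09), a ratio of the group means of 0.123. Only 950 bp of this gene are counted as gene body, and the value in KO2 rests on 15 whole reads.

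Cyp7a1, the rate-limiting enzyme of the classic pathway, lies on chr4:6265612-6275632 and had 3517, 2524, 2214 and 2370 gene body reads in the same order. Both knockout libraries were below WT, KO2 only a little below WT2. The difference of -0.38 (SE 0.13, limma adjusted p = 0.0226) passed the test and not the threshold on size, and Cyp7a1 remained the densest of the 10 genes in both genotypes. The difference was -0.62 without WT2, where it would have been called, -0.14 without WT1 (limma adjusted p = 0.475) and -0.30 with median-of-ratios scaling (limma adjusted p = 0.175).

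The genes of the alternative pathway did not move with Cyp8b1. Cyp27a1, the mitochondrial sterol hydroxylase on chr1:74713148-74737897, had 3373 and 2317 gene body reads in WT and 2274 and 2634 in the knockout. The groups overlapped, with KO2 above WT2, and the log2 difference was -0.19 (SE 0.14, limma adjusted p = 0.286). Cyp7b1, the oxysterol hydroxylase that follows it, spans chr3:18071944-18243890 and had 438 and 411 reads in WT and 819 and 738 in the knockout. Both knockout libraries were above both WT libraries, a ratio of means of 1.83, but spread over 170389 bp these reads averaged 3.53 per kb, under the minimum of 4, so it has no test among active genes. In a fit of all 20642 symbols its log2 change was 0.87 (SE 0.08, limma adjusted p = 0.0481). That same fit called Slc10a1 and Abcb11 lower but ended the gene body calls of Cyp8b1, Baat, Nr0b2 and Slc27a5 (limma adjusted p = 0.0531, 0.111, 0.119 and 0.16).

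The enzymes of conjugation moved in opposite directions. Slc27a5, the bile acyl-CoA synthetase that activates bile acids, lies on chr7:12988346-12998192 and had 1170, 736, 490 and 431 gene body reads in WT1, WT2, KO1 and KO2. The knockout libraries were lower than WT, and WT1 stood well above WT2. It fell by 1.01 on the log2 scale (SE 0.16, limma adjusted p = 2.62e-05). Baat, which joins the activated bile acid to taurine, lies on chr4:49489416-49507915 and had 637, 453, 1019 and 1139 reads. Both knockout libraries were above WT, and the log2 change was 1.0 (SE 0.15, limma adjusted p = 6.42e-06). Baat was the one gene of the 9 called higher in its gene body.

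The membrane transporters fell by nearly the same amount. Slc10a1, the sodium-dependent carrier NTCP that takes bile acids up from the blood, lies on chr12:80953185-80968705 and had 3315, 3096, 1448 and 1608 gene body reads. Abcb11, the bile salt export pump BSEP of the canalicular membrane, lies on chr2:69238282-69342616 and had 16567, 14797, 7888 and 7558. For both genes the replicates were close together and the knockout libraries lay well below WT. Slc10a1 changed by -1.07 (SE 0.11, limma adjusted p = 5.57e-08) and Abcb11 by -1.02 (SE 0.11, limma adjusted p = 1.17e-07), ratios of means of 0.477 and 0.492. Over the 4 libraries these were each other's nearest neighbour among the 10 genes, at a distance of 0.16 between their centred log2 profiles. Cyp7a1 and Cyp27a1 were also each other's nearest (0.21), as were Cyp7b1 and Baat (0.38). Cyp8b1 was 1.72 from its nearest, Nr0b2. Likeness over 4 libraries is a description.

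The receptor and its target differed in gene body reads. Nr1h4, encoding FXR, lies on chr10:89454234-89533645 and had 12960, 11801, 10255 and 10499 gene body reads. Both knockout libraries were slightly below WT, and the difference of -0.25 (SE 0.11, limma adjusted p = 0.0741) was not called. Nr0b2, encoding SHP, lies on chr4:133553376-133556686 and had 659, 437, 154 and 229 reads. All WT values were above all knockout values, and it fell by 1.51 on the log2 scale (SE 0.19, limma adjusted p = 1.25e-06). The RefSeq promoter entry of Nr1h4 lies 26927 bp inside the long transcript that was counted, so reads from a shorter transcript would fall in its gene body.

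These libraries came from nuclei of whole liver, where fewer nuclei of a type and less transcription per nucleus cannot be told apart. Of 8 hepatocyte markers 7 were found, 4 fell and none rose, their summed gene body reads going from 331905-332758 in WT to 158372-163944 in the knockout (median log2 change -0.89). All 6 stellate markers rose (9184-10317 reads in WT, 18302-19969 in the knockout, median 1.44) and so did 5 of 6 endothelial markers (49339-53369 and 83004-92920 reads, median 0.70). Of 5 Kupffer and myeloid markers none was called (13455-13953 and 14685-17182 reads). The cholangiocyte markers Krt19, Krt7 and Epcam had between 3.04 and 57.3 gene body reads in each library, and 4 of 5 erythroid markers fell (785-983 and 304-355 reads). No marker found was at 0 in any library. These values moved with the falls of Slc10a1, Abcb11, Slc27a5, Nr0b2 and Cyp8b1, and their part in the result was not tested. Cyp7a1, Cyp27a1 and Nr1h4, with log2 differences of -0.19 to -0.38, lay nearer 0 than the hepatocyte median. The least changed hepatocyte markers, Ttr (-0.30) and Fgb (-0.28), lay within that span. The other hepatocyte markers found ran from -0.54 (Apob) to -1.76 (Apoa1).

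Levels were set per kb of gene body, which takes out its length but not other differences between genes. The counted gene body was 950 bp in Cyp8b1 and 2147 bp in Nr0b2, against 103335 bp in Abcb11. The WT order was led by Cyp7a1 (335 ± 77.8 normalized reads per kb, SD, n = 2), Nr0b2 (255 ± 73.0), Cyp8b1 (248 ± 42.3) and Slc10a1 (231 ± 11.1). Their ranges overlapped from each to the next. Nr1h4 (158 ± 10.5), Abcb11 (152 ± 12.1), Cyp27a1 (122 ± 32.0) and Slc27a5 (108 ± 34.7) followed, again with overlapping neighbours, and below them stood Baat (33.8 ± 8.05) and Cyp7b1 (2.49 ± 0.113). The WT ranges of neighbours were apart between Slc10a1 and Nr1h4, between Slc27a5 and Baat and between Baat and Cyp7b1.

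In the knockout, Cyp7a1 still led at 254 ± 12.2 per kb, followed by Nr1h4 (132 ± 2.20), Slc10a1 (110.0 ± 8.14), Cyp27a1 (105 ± 10.9), Nr0b2 (89.2 ± 24.8) and Abcb11 (74.7 ± 2.26). Baat (66.9 ± 5.23) then stood above Slc27a5 (52.1 ± 4.71), the reverse of their WT order, and Cyp8b1 (30.4 ± 9.10) had gone from rank 3 to rank 9 of the 10, just above Cyp7b1 (4.57 ± 0.336). Neighbours overlapped from Slc10a1 to Cyp27a1, Nr0b2 and Abcb11 and were apart elsewhere. Among all active genes, Cyp8b1 moved from percentile 96.8 of density to 43.5, Slc27a5 from 87.7 to 67.0 and Baat from 45.2 to 76.7, while Cyp7a1 was at 98 and 97.7.

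**Figure D2:**
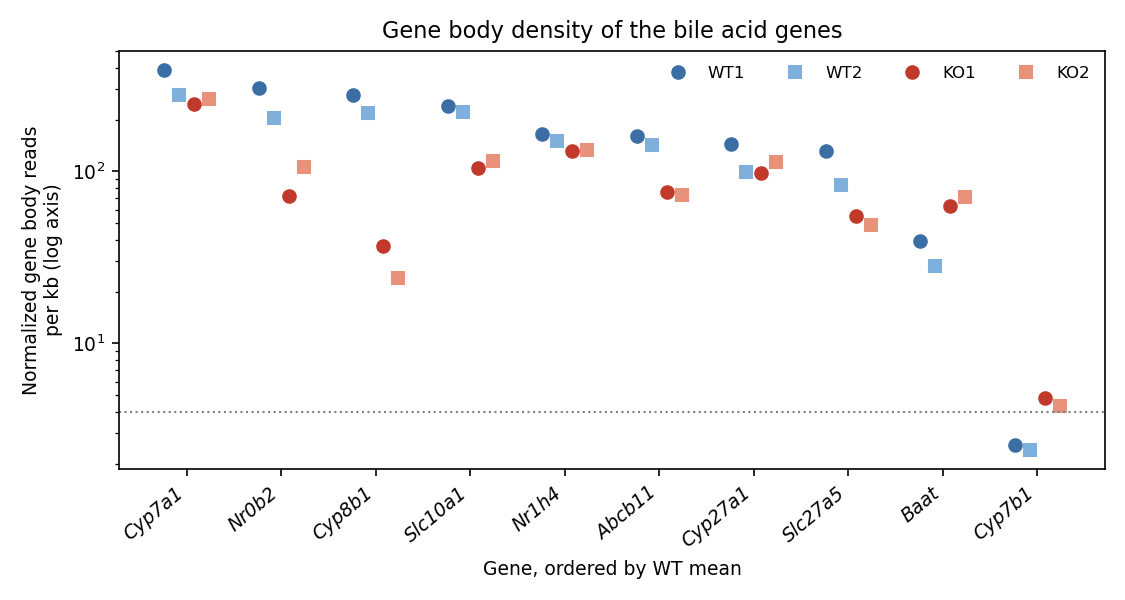
Normalized gene body reads per kb in each library on a log axis, with genes in order of their WT mean and the dotted line at the activity minimum of 4 per kb. Circles and squares mark replicates 1 and 2, blue WT and red Hdac3 knockout. Cyp8b1 drops from 248 to 30.4 per kb on average, and Cyp7b1 is the only gene with points below the line.

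Near the start sites, the comparison has a moving baseline, since the median log2 change of promoter-proximal reads over all active genes was 0.56 and both knockout libraries lay above both WT libraries for 61.9% of active genes and below for 6.72%. On this scale 2 of the 9 genes rose (Baat and Nr1h4), 2 fell (Cyp8b1 and Nr0b2) and 5 were not called, against 25.8% of active genes called up and 2.20% called down, and the groups were apart with the knockout lower for 4 genes and higher for 2. The median of the 9 was -0.33. When promoter-proximal reads were rescaled by their own median of ratios, which moved the median of all genes to -0.001, none of the 9 rose and 5 fell, against 4.99% and 7.41% of active genes. Cyp8b1 and Nr0b2 were called lower under both of these scalings. With the median of ratios of gene bodies applied to both regions, Nr0b2 was at -0.78 near the start (limma adjusted p = 0.0735) and was not called.

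Cyp8b1 had 103, 59, 22.3 and 13.7 promoter-proximal reads in WT1, WT2, KO1 and KO2. Both knockout libraries were lower, and the log2 change was -2.10 (SE 0.39, limma adjusted p = 8.85e-06), or -2.66 relative to the median. Nr0b2 had 560, 599, 339 and 298 reads near its start. Its WT pair and its knockout pair were each close together and apart from the other, and it fell by 0.86 (SE 0.30, limma adjusted p = 0.0208), or by 1.42 relative to the median. With replicate number as a block the adjusted p of Nr0b2 in limma was 0.0734 and it was no longer called.

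Nr1h4 had 110, 157, 331 and 285 promoter-proximal reads, both knockout libraries higher than WT, in contrast to its gene body. The log2 change was 1.22 (SE 0.32, limma adjusted p = 0.00210), and 0.66 relative to the median. Baat had 83.8, 35, 130 and 161 reads. Its knockout libraries were above WT, with the WT pair far apart, and the change was 1.40 (SE 0.35, limma adjusted p = 0.00121), or 0.84 relative to the median. Under the rescaling neither was called (limma adjusted p = 0.092 for Nr1h4 and 0.0778 for Baat).

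Slc10a1 had 221, 197, 99.7 and 167 promoter-proximal reads, and Cyp7a1 had 80.3, 60, 35.0 and 39.5. In both genes the knockout libraries were below WT. The differences were -0.69 (SE 0.33, limma adjusted p = 0.0906) for Slc10a1 and -0.88 (SE 0.38, limma adjusted p = 0.0621) for Cyp7a1, not called as deposited, and both were called lower after rescaling (-1.26 and -1.44, limma adjusted p = 0.000654 and 0.0020).

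Slc27a5 had 384, 175, 206 and 210 promoter-proximal reads, and its groups overlapped because WT2 lay below both knockout libraries. The difference was -0.32 (SE 0.32, limma adjusted p = 0.424), and after rescaling -0.89 (limma adjusted p = 0.0279), which was called. Abcb11 had 97.5, 32, 39.2 and 50.1 reads, WT2 again the lowest (difference -0.33, SE 0.38, limma adjusted p = 0.495). Cyp27a1 had 159, 127, 132 and 150, overlapping (difference -0.02, SE 0.33, limma adjusted p = 0.973). Cyp7b1, untested here too, had 11.5, 13, 28.6 and 47.1 reads, the knockout pair above the WT pair. Without WT1 the differences of Slc27a5 and Abcb11 turned to 0.25 and 0.46, and neither was called.

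The promoter-proximal calls depended on single libraries: the 4 called genes became 1 without WT1, 2 without WT2, 4 without KO1 and, in limma, 0 without KO2, where 6 of the 9 still had an unadjusted p under 0.05. The change of Baat near the start was 2.02 without WT1 and 0.78 without WT2. A DESeq2 and an edgeR test on the whole reads, with the deposited factors, called the same 4 genes as limma near the start and the same 6 in the gene body.

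**Figure D3:**
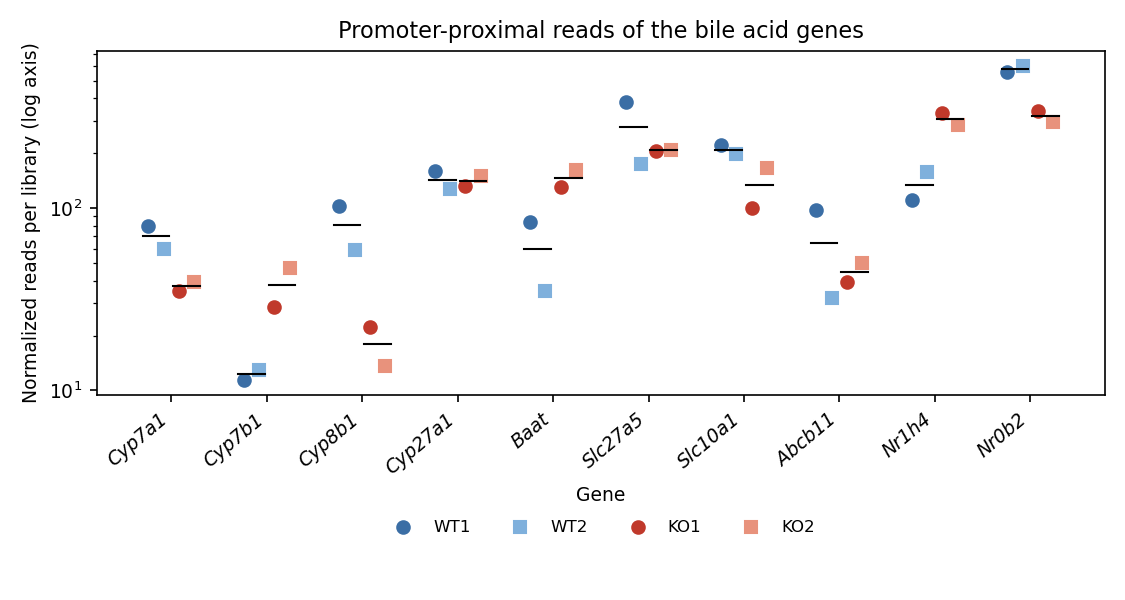
Normalized promoter-proximal reads of the 10 genes in each library on a log axis, with circles and squares for replicates 1 and 2, blue for WT, red for Hdac3 knockout, and lines for group means. Nr1h4 has 331 and 285 reads in the knockout against 110 and 157 in WT, and Abcb11 and Slc27a5 have WT pairs that straddle the knockout pair.

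**Figure D4:**
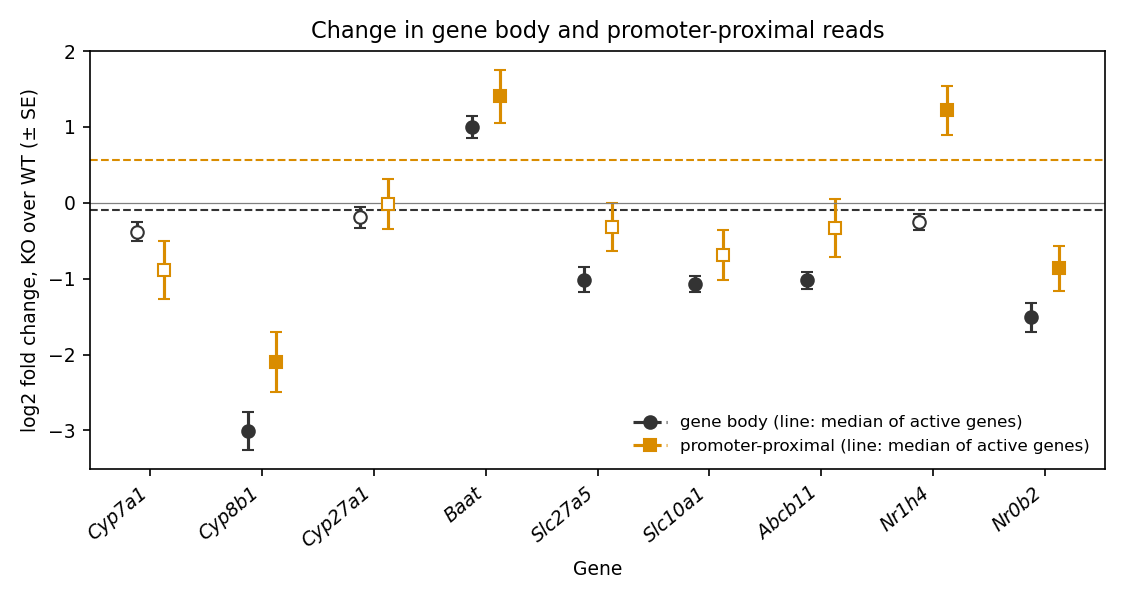
Log2 change, knockout over WT, in gene body (black circles) and promoter-proximal reads (orange squares) of the 9 active genes, with bars of 1 SE. Filled points were called and dashed lines are the medians of all active genes, -0.09 and 0.56. Nr1h4 is the one gene with a called rise near the start beside a gene body below 0.

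Whether the 2 regions changed unequally was tested on the pausing index, promoter-proximal over gene body reads per bp. Over all active genes its median log2 change was 0.61, with 12.4% called up and 0.519% called down, and among the 9 genes 1 was called, Nr1h4. Its index was 13.4 and 21.0 in WT and 50.7 and 42.8 in the knockout. Both knockout values were above both WT values, a log2 change of 1.47 (SE 0.42, limma adjusted p = 0.0142), or 0.86 relative to the median. The call was lost when each region was scaled by itself (0.82, limma adjusted p = 0.353) with the replicate block (limma adjusted p = 0.0852), and without WT1 or WT2 (limma adjusted p = 0.369 and 0.335).

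The other indices were not called. For Cyp8b1 the index was 7.48 and 5.48 in WT and 12.3 and 11.7 in the knockout, apart, with a difference of 0.91 (SE 0.46, limma adjusted p = 0.139). Cyp7a1 had 4.17 and 4.36 in WT and 2.93 and 3.08 in the knockout, the only gene of the 9 with a lower index in the knockout (difference -0.50, SE 0.49, limma adjusted p = 0.432). The remaining 6 differed by 0.17 to 0.69.

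The rest of the bile acid genes were taken as 42 further genes of synthesis, transport and regulation, of which 39 were found and 33 were active. They too were chosen with earlier results of these data known, so the shares of them called are a description. In gene bodies 22 of the 33 fell and 1 rose (median -0.84), against 11.4% and 10.4% of all active genes. Near the start 9 fell and 2 rose (median -0.45), against 2.20% and 25.8%, calls that went to 0 without WT1 (8 at an unadjusted p under 0.05 in limma), 1 without WT2 and 4 without KO2. Of 14 other synthesis genes 12 were active, and 10 fell and none rose. The largest fall was in Cyp39a1, the hydroxylase of an oxysterol side route, with 6788, 5368, 1382 and 1400 gene body reads (-2.12, limma adjusted p = 5.73e-12). The peroxisomal side-chain enzymes Amacr (-1.48, limma adjusted p = 4.57e-10) and Acox2 (-1.44, limma adjusted p = 3.44e-10) and the steroid ring reductase Akr1d1 (-1.33, limma adjusted p = 3.51e-09) followed. Akr1c6 and Cyp2c70, which also fell, belong to families of close paralogs whose reads may be shared.

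Of 10 active other transporters, 6 fell and 1 rose in gene bodies, against 11.4% and 10.4% of all active genes. The sterol exporters Abcg5 (-2.32, limma adjusted p = 1.11e-12) and Abcg8 (-2.01, limma adjusted p = 4.68e-12) had the largest falls, and Slc10a5, a relative of Slc10a1, changed by -1.26 (limma adjusted p = 5.32e-04). Abcc4, an exporter of the basolateral membrane, rose by 1.0 (2476, 2545, 5056 and 4972 reads, limma adjusted p = 7.31e-08), opposite in direction to Abcb11. Abcb4, the phospholipid transporter of the canalicular membrane, had 7048, 6314, 6365 and 7330 reads, overlapping (0.03, limma adjusted p = 0.835).

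Of 11 active other regulators, 6 fell and none rose in gene bodies, against the same 11.4% and 10.4%. Ppargc1a, a coactivator of hepatic metabolism, changed by -2.24 (limma adjusted p = 3.73e-12), Fgfr4, the receptor for the intestinal feedback hormone, by -1.62 (limma adjusted p = 2.77e-08), and Hnf4a, a hepatocyte nuclear receptor, by -1.53 (limma adjusted p = 2.61e-10). The xenobiotic receptor gene Nr1i2 changed by -1.10 (limma adjusted p = 5.11e-08). Nr5a2, encoding LRH-1, had -0.52 (limma adjusted p = 6.03e-04), short of the threshold on size. The ileal genes Fgf15, the feedback hormone, and Slc10a2, the ileal uptake carrier, were near background, with 0 gene body reads for Fgf15 in every library and 1.15, 4, 1.06 and 1.52 for Slc10a2.

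**Figure D5:**
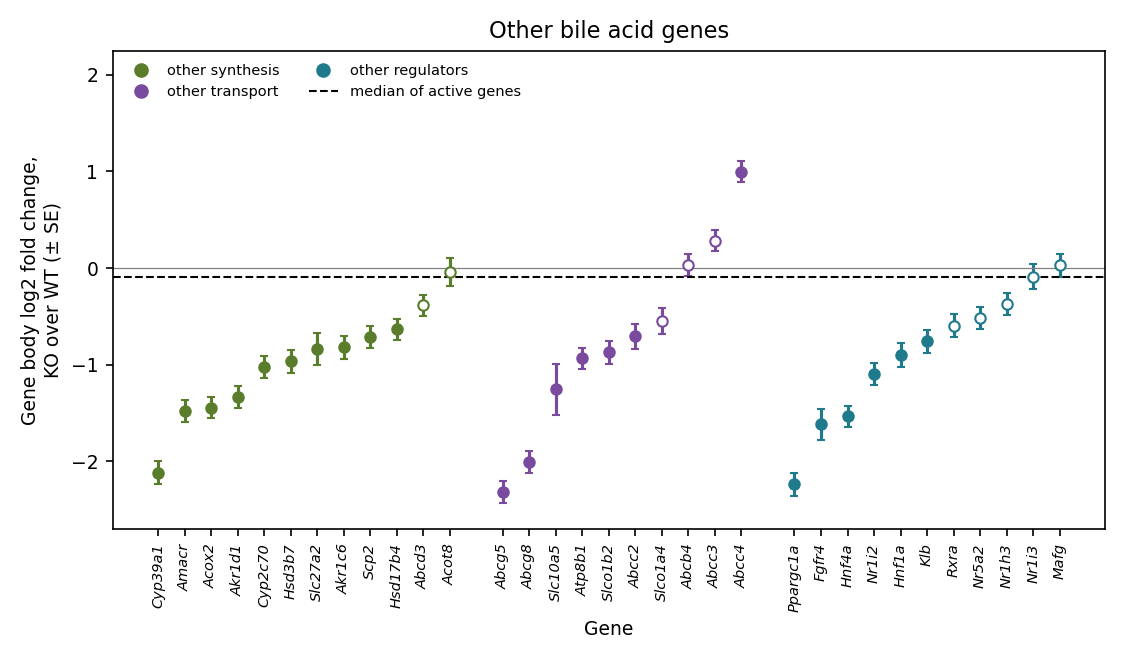
Gene body log2 change, knockout over WT, with bars of 1 SE, for the 33 active other bile acid genes in 3 lists. Filled points were called and the dashed line is the median of all active genes, -0.09. Abcc4 at 1.0 is the only filled point above 0.

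The study's list of 2282 intergenic enhancers, which holds no value per library, had 1 within 50 kb of 3 of the 10 genes. The share was 9.83% among all active genes and 30.3% among the 33 active other bile acid genes. That near Slc10a1, its closest gene, was 2609 bp long at chr12:80974782-80977391, centred 7922 bp upstream of the counted start of Slc10a1. The others were at chr7:12960635-12963417, centred 36192 bp downstream of the start of Slc27a5, and at chr9:121889582-121892064, centred 25734 bp downstream of that of Cyp8b1, but their closest genes were Zfp324 and Ccbp2. Through contacts in a database of other cell types, Th1, embryonic and neural stem cells, 7 of the 10 genes were linked to enhancers, against 75.8% of all active genes. On the same chromosome the nearest were 81.8 kb upstream of Cyp7a1, 85158 and 90047 bp upstream of Nr0b2, 149 kb upstream of Cyp8b1 and 381 kb upstream of Cyp7b1, and those of Nr1h4, Slc10a1 and Cyp27a1, with a further one of Cyp7b1, lay 1655 kb away or farther. No change between the groups can be read from these positions.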

How the data were processed

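PRO-seq libraries were made from liver nuclei of 2 WT and 2 Hdac3 knockout samples. Per the labels and the methods, the authors trimmed adapters (cutadapt), mapped reads to the mm10 build (Bowtie2), discarded ribosomal and low-quality alignments and counted each region with NRSA. The deposited values are a normalized signal per transcript: reads multiplied by 1 factor per library (1.15 for WT1, 1.06 for KO1 and 1.52 for KO2). WT2 had a factor of 1, so that its deposited values are counts. Dividing by the factor gave whole reads, to within 0.001, for 100% of 41640 values per library.

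Of 20820 transcripts, 1 per symbol was kept. Genes were active if promoter-proximal reads were above 0 and mean gene body density was over 4 per kb (12705 genes). This minimum was applied to the deposited values, which are on the scale of WT2. The study applied its own after scaling total reads to a fixed number, so its set of active genes need not be the same. log2(normalized reads + 1) was tested with limma 3.58.1 (trend, no block, two-sided) and Benjamini-Hochberg adjustment over active genes, with 2 libraries per group, and checked on simulated data. edgeR 4.0.16 and DESeq2 1.42.0 on whole reads, other scalings, filters, pseudocounts and left-out libraries were alternatives. R 4.3.3 and Python 3.11.15 were used. Values rest on 16628518 to 26190040 reads per library, and low counts limit precision most near the starts.

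The members and gene lists were chosen with earlier results of these data known. In each other list the 4 called genes of largest gene body change were named, with Fgf15 and Slc10a2, and Abcb4, Nr5a2, Akr1c6 and Cyp2c70 were named after their values were seen. Levels per kb use the annotated gene body length. Motifs were searched in RefSeq promoters, which had entries for 6 of the 10 genes. The entry of Nr1h4 lay 26927 bp from its counted start. Coordinates are GRCm38 and enhancer positions are as deposited. Columns of the authors' own comparisons were not used. The cholangiocyte marker list as a whole is not reported here.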

Additional observations from a re-analysis of the deposited data

How the results depend on the processing

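Of the gene body results, 6 genes were called in the main test and 6 to 7 when 1 library was left out, and near the start 4 were called and 0 to 4. The pausing index gave 1 call and 0 to 1, the wider gene body list 23 and 21 to 25, and the wider list near the start 11 and 0 to 9, where the lone library of a group was assumed to vary like the other group. Without the filter on activity, over 20642 symbols, 3 gene body calls were made among the 10 genes, of which 2 were in the main test (Slc10a1 and Abcb11) and 1 was Cyp7b1, not tested there. There were 0 calls near the start and 0 for the pausing index, and 11 and 0 in the wider list. At an unadjusted p under 0.05 in limma, the counts of 0 were 5 of the 10 genes near the start, 3 for the pausing index and 12 of the wider list. With each region scaled by itself, by median of ratios or TMM, the pausing index gave 0 calls (2 unadjusted) and the wider list near the start 21, all lower. A pseudocount of 10 gave 2 pausing index calls, and a log2 change over 1 left 12 of the wider list in gene bodies. The cause of these shifts was not tested.

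With a replicate block the pausing index gave 0 calls (1 unadjusted), and no gene body call of the 10 genes changed. Same-numbered libraries did not deviate together (correlation 0.019 in gene bodies and -0.105 near the start), so the numbers do not show a pairing. A crossed block, added after seeing the data, gave 6 calls near the start and 13 in the wider list. A variance trend of the pausing index on promoter-proximal level, also added, gave 1.

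Some differences that were not called changed sign. Leaving out 1 library gave Cyp27a1 -0.4625 to 0.0791 in the gene body, and near the start it gave Cyp27a1 -0.1804 to 0.1458, Slc27a5 -0.8851 to 0.2455 and Abcb11 -1.1193 to 0.4587. The pausing index of Abcb11 ranged from -0.0179 to 1.397. Under gene body scaling Cyp27a1 was at 0.0636 near the start. With each region scaled by itself, by median of ratios and TMM, which moved the median pausing index change of all genes from 0.61 to -0.026 and -0.025, the difference was -0.4741 and -0.4726 for Cyp27a1, -0.2465 and -0.245 for Baat, -0.2696 and -0.2681 for Slc10a1 and -0.005 and -0.0036 for Nr0b2.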
